A study of Mus musculus with 6 samples.

Results

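Collagens are the structural proteins of connective tissue, and each is built from 3 chains wound into a triple helix. The genes described here are all rows of the deposited gene table whose symbol is Col, a number, the letter a and a number. There were 41 such collagen chain genes among 14366 listed genes. They were sorted by the kind of assembly their chains build into 11 fibrillar genes, 6 basement membrane genes of type IV, 8 FACIT genes (fibril-associated collagens whose helix is interrupted), 2 multiplexin genes (types XV and XVIII) and 14 others. Col10a1, Col19a1 and Col28a1 carry such names in the GENCODE mouse annotation and were not analysed here.

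Fibrillar collagens assemble into the banded fibres of mesenchyme, type IV forms the mesh of the basement membrane under epithelium and around vessels, and FACIT and multiplexin chains sit on or between these structures. In the developing epididymis the epithelium of the Wolffian duct is wrapped in mesenchyme, so both kinds of matrix meet there. Chains are hydroxylated and folded in the endoplasmic reticulum, trimmed after secretion and then cross-linked.

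RNA had been sequenced from the mesonephros, mesonephric tubule region included, of male mouse embryos at embryonic day 16.5. The 3 control samples carried Osr2Cre, a recombinase under the control of Osr2, a gene of urogenital mesenchyme, together with 1 floxed and 1 unfloxed Gata2 allele (Osr2Cre+;Gata2-flox/+). The 3 Gata2cKO samples carried the same recombinase with both alleles floxed (Osr2Cre+;Gata2-flox/flox), so every sample had the recombinase and no sample had 2 unfloxed alleles. Nothing in the labels says that samples came from separate embryos or litters, and p-values here measure the spread between these samples, which may be technical. Levels are TPM (transcript shares of a library, scaled for gene length and to a fixed total), which keep no read depth. In bulk tissue, fewer cells of a type and less RNA per cell cannot be told apart.

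Gata2 itself lay between 384 and 546 TPM in controls and between 416 and 530 TPM in Gata2cKO, which overlap. A gene-level value does not check the deletion of the floxed part, so directions rest on the labels. Control replicate 1 stood apart from the other libraries in its mitochondrially encoded transcripts, with 21.9% of its TPM against 13.2% to 16.3% in the other 5 libraries. It was also the highest in globin transcripts, at 18277 TPM against 6868 to 13821 TPM in the other 5. Epithelial markers of the duct were present, with all 9 of 9 markers listed and a summed level of 765 to 861 TPM in controls.

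The collagen genes took up 0.851%, 1.02% and 1.07% of the TPM in the controls (replicates 1 to 3 in order, as in all such triplets here) and 0.999%, 1.29% and 1.04% in Gata2cKO. These ranges overlap. Of the 41 genes 4 had a mean of at least 1000 TPM over the 6 libraries, 9 of at least 100 TPM and 6 of less than 1 TPM. The 5 most abundant, Col1a1, Col3a1, Col1a2, Col6a1 and Col6a2, held between 89.3% and 90.6% of all collagen TPM in every library. Control replicate 1 was the lowest of the controls for 27 of the 41 genes (65.9%, against 43.1% of all tested genes), and Gata2cKO replicate 2 was the highest Gata2cKO library for 32 (78.0%, against 54.2%). Total collagen was lowest and highest in those same libraries, at 8488 and 12845 TPM.

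**Figure D1:**
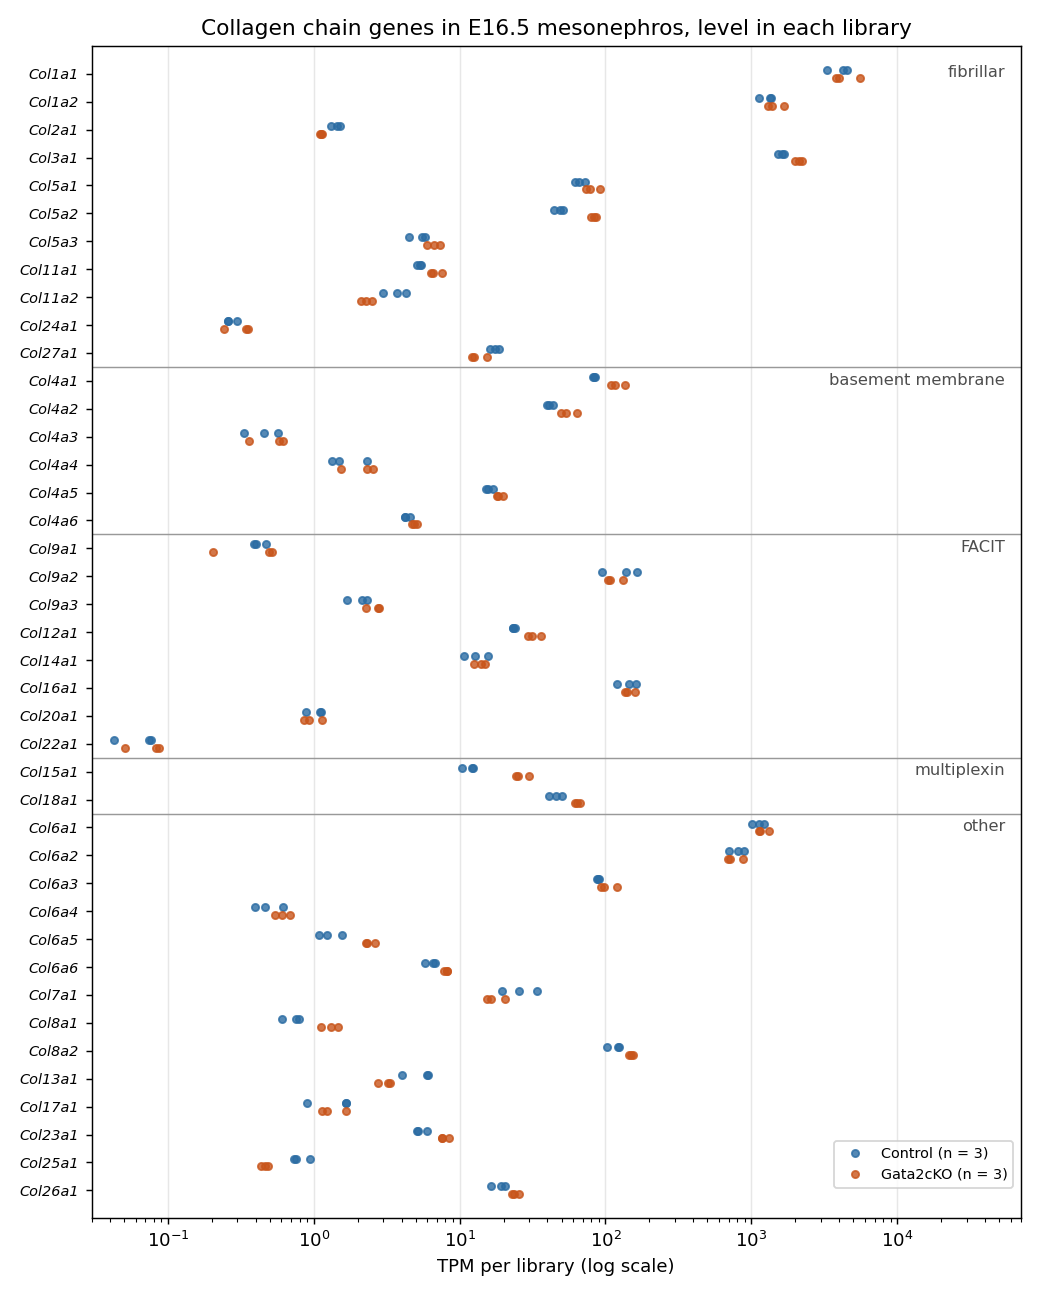
Level of each of the 41 collagen chain genes in every library, in TPM on a log axis, grouped by class, with controls in blue and Gata2cKO in orange (3 points each). Levels span from 0.0429 TPM for Col22a1 to 5551 TPM for Col1a1 in Gata2cKO replicate 2, and the groups separate for Col15a1 and Col5a2 but overlap for Col1a1 and Col6a1.

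Between the groups, 9 collagen genes rose in Gata2cKO and 1 fell. The genes that rose were Col15a1, Col5a2, Col6a5, Col4a1, Col18a1, Col23a1, Col12a1, Col3a1 and Col8a1, and Col13a1 fell. The test was limma on log2(TPM + 1) across all genes with at least 1 TPM in at least 3 libraries, with the adjusted p required to be under 0.05. It covered 35 of the 41 collagen genes and 12300 genes in all. Col8a1 entered the test through its Gata2cKO values alone, since all its control values were under 1 TPM. Of all tested genes 7.47% were called, 5.73% as higher and 1.74% as lower, against 25.7% and 2.86% of the tested collagen genes. The 25.7% counts Col8a1. A filter of 5 TPM or more in at least 3 libraries leaves Col8a1 out. With it 7 of 25 tested collagen genes were called higher, and 593 of 9317 tested genes in all. The median log2 fold change was 0.22 over the tested collagen genes and 0.05 over all tested genes, and it was positive for 26 of the 35 collagen genes (74.3%) and for 59.5% of all tested genes.

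Most of these calls did not hold in every removal of a library. Only Col15a1 and Col5a2 kept theirs in each of the 6 fits that left out 1 library. Without control replicate 1 the fit called 9 collagen genes higher and 3 lower, in a fit that called 12.5% of all tested genes. The 9 called higher held Col8a2 (limma adjusted p = 0.0394) in place of Col8a1 (limma adjusted p = 0.0507). The 3 called lower were Col13a1, Col11a2 and Col7a1. Without control replicate 2 or 3 the fit called 3 higher and 0 lower (2.11% and 2.23% of all tested genes). Without Gata2cKO replicate 1, 2 or 3 it called 2 higher and 0 lower (0.943%, 1.87% and 1.67%). By the authors' deposited table, collagen genes were higher in 14 cases and lower in 5 at an adjusted p under 0.05, against 6.69% and 6.58% of all listed genes. All 10 genes called by limma are among these, in the same direction. Col4a1, Col12a1, Col15a1, Col18a1 and Col13a1 overlap genes annotated on the other strand, and their values are uncertain to that extent because the strand setting of the counting is not known here. Other scalings moved the balance of calls over all genes, from 705 higher and 214 lower to 502 and 397 with median-of-ratios scaling, 578 and 342 with upper-quartile scaling and 435 and 282 without mitochondrially encoded genes. The collagen calls were then 8 higher and 3 lower, 10 and 2, and 7 and 2.

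**Figure D2:**
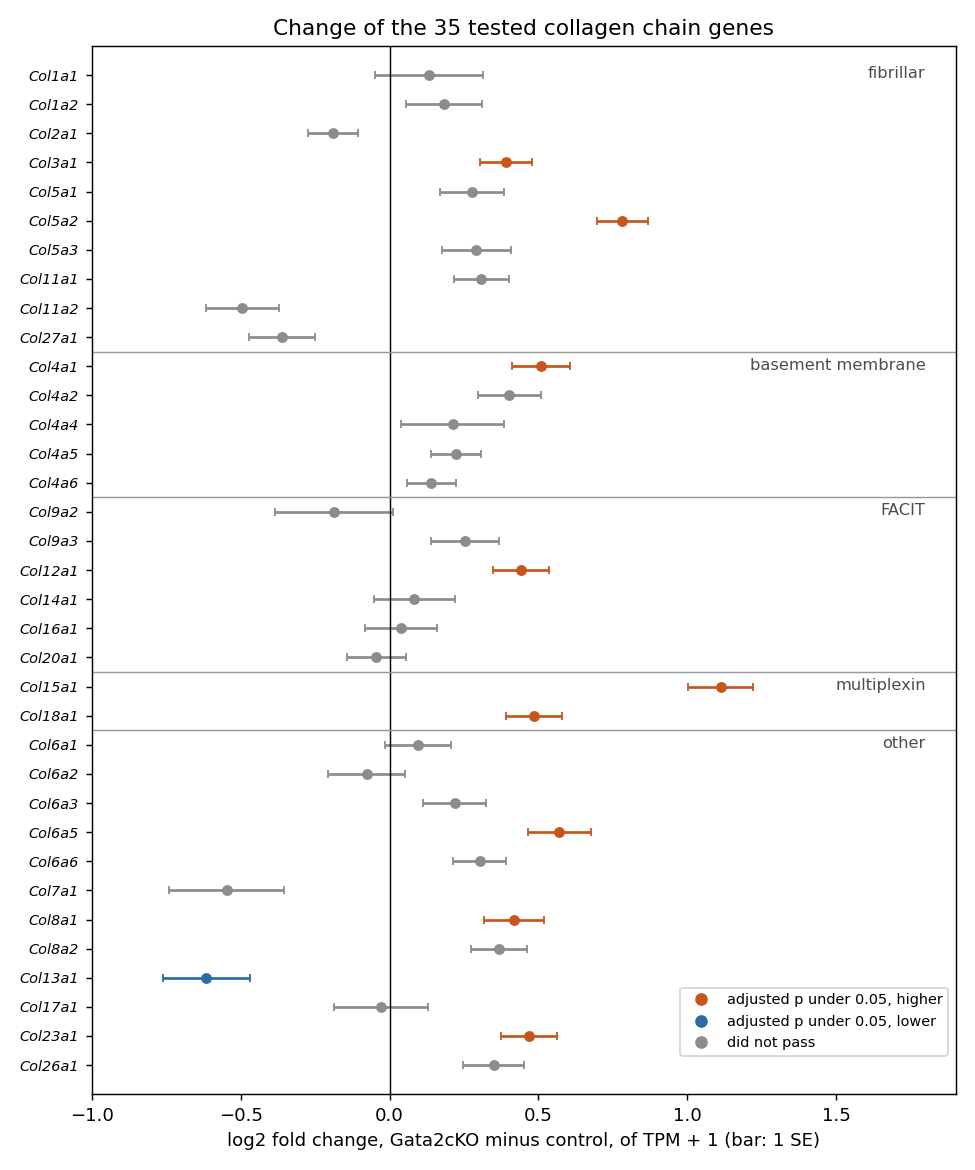
Log2 fold change of TPM + 1 (Gata2cKO minus control) with its SE for the 35 tested collagen chain genes, grouped by class. Orange points passed the test as higher, the blue point as lower and grey points did not pass. Col15a1 has the highest value at 1.11 and Col13a1 the lowest at -0.62.

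Among the fibrillar genes Col3a1 and Col5a2 rose, while the type I genes did not pass. Of 10 tested fibrillar genes 2 rose and 0 fell, with a median log2 fold change of 0.23. Their summed level, 6087, 7425 and 7709.8 TPM in controls and 7274, 9634 and 7719.6 TPM in Gata2cKO, overlapped between the groups. Col1a1, which encodes the main chain of type I collagen, stood at 3299.8, 4280.3 and 4554 TPM in controls and at 3813, 5551 and 4010.1 TPM in Gata2cKO. Col1a2, its partner chain, stood at 1121, 1333 and 1372 TPM and at 1299.5, 1671 and 1378 TPM. For both genes the groups overlap, with Gata2cKO replicate 2 the highest of the 6 libraries and control replicate 1 the lowest. Their log2 fold changes were 0.13 (SE 0.18) and 0.18 (SE 0.13), with limma adjusted p of 0.674 and 0.398.

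Col3a1, the single chain of type III collagen, which mixes with type I in the fibres of soft tissue, was at 1527, 1662 and 1628 TPM in controls and at 1977, 2208 and 2137 TPM in Gata2cKO. All Gata2cKO libraries lay above all controls. It rose 1.31-fold, with means of 1606 ± 69.9 TPM in controls and 2107 ± 118 TPM in Gata2cKO (SD over n = 3 libraries per group; log2 change 0.39 with SE 0.09; limma, adjusted p = 0.0414). It lost its call with median-of-ratios scaling (adjusted p = 0.0678), without the filter on low values (0.0570) and with the replicate number as a block (0.0603). The call was also lost in 5 of the 6 removals of a library (adjusted p from 0.0264 without control replicate 1 to 0.142 without Gata2cKO replicate 3).

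Col5a2 encodes a chain of type V collagen, which is buried in type I fibrils and limits their width. Its level was 44.1, 51.1 and 48.7 TPM in controls and 83.2, 79.4 and 86.7 TPM in Gata2cKO, so that the lowest Gata2cKO library was well above the highest control. It rose 1.73-fold, with means of 48.0 ± 3.57 TPM in controls and 83.1 ± 3.67 TPM in Gata2cKO (SD over n = 3 libraries per group; log2 change 0.78 with SE 0.08; limma, adjusted p = 0.00739). With 1 library left out the adjusted p ranged from 0.00328 to 0.0444. The other type V chains did not pass: Col5a1 was at 61.5, 66.2 and 72.1 TPM in controls and at 73.4, 91.6 and 78.4 TPM in Gata2cKO, and Col5a3 at 4.52, 5.51 and 5.80 TPM and at 5.94, 7.38 and 6.70 TPM (limma adjusted p = 0.144 and 0.155). For these 2 genes as well the groups do not overlap, an arrangement with Gata2cKO above that 23.4% of all tested genes show.

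Col3a1 and Col5a2 are neighbours on chromosome 1, at 45311538 to 45349706 and 45374321 to 45503282 (GRCm38), with their 3′ ends facing each other across 24614 bases. The RefSeq promoter window of Col3a1, 250 bases before the start to 50 after it, is shown because among the called genes with a window it alone holds a GATA motif, the kind of site that the GATA family binds (Col3a1, chr1:45311288-45311587, plus strand, GRCm38.p6; capitals mark CTATCA, the reverse complement of TGATAG, and TATAAA).
Col3a1: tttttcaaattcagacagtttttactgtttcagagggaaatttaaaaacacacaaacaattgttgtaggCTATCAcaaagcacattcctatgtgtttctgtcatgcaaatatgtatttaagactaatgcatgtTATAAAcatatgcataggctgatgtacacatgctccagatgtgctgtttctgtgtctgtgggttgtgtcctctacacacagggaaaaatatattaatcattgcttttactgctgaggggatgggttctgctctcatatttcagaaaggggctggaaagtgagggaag

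The remaining fibrillar genes were low, and none of them passed the threshold. The chains of type XI, which nucleates fibrils and is best known from cartilage, differed in sign: Col11a1 was at 5.14, 5.44 and 5.39 TPM in controls and 6.38, 7.60 and 6.56 TPM in Gata2cKO, and Col11a2 at 2.99, 4.32 and 3.73 TPM and 2.29, 2.12 and 2.50 TPM (limma adjusted p = 0.0807 and 0.0523). In neither gene do the groups overlap. Without control replicate 1 Col11a2 passed, with a log2 fold change of -0.60 (limma adjusted p = 0.0138), and it also passed with median-of-ratios scaling, upper-quartile scaling, a total without mitochondrially encoded genes and a constant prior variance. Col27a1, another gene of cartilage fibrils, had 18.6, 16.1 and 17.6 TPM in controls and 12.1, 15.5 and 12.5 TPM in Gata2cKO (limma adjusted p = 0.0867), and passed with median-of-ratios scaling (adjusted p = 0.0469). Lower calls for it and Col11a2 stand in the authors' deposited table (adjusted p = 0.000652 and 0.00804). Col2a1, the main collagen of cartilage, was at 1.31 to 1.51 TPM in controls and 1.10 to 1.14 TPM in Gata2cKO. Col24a1, at 0.244 to 0.354 TPM, was not tested.

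Markers of cartilage were low in this tissue. Of 9 markers written 4 were measured, with a summed level of 7.72 to 9.22 TPM in controls and 5.30 to 6.79 TPM in Gata2cKO, and they went both ways. Sox5 and Sox6, which drive cartilage formation, were at means of 0.0629 and 0.288 TPM in controls and 0.0488 and 0.395 TPM in Gata2cKO, too low to be tested. Acan, Matn1, Matn3, Comp and Ucma were not analysed here. Cnmd (listed as Lect1), a glycoprotein gene of cartilage, fell with means of 5.84 ± 0.442 TPM in controls and 2.58 ± 0.718 TPM in Gata2cKO (SD over n = 3 libraries per group, limma adjusted p = 0.0143). It kept its call in 4 of the 6 removals of a library. Hapln1, a link protein gene of cartilage, was at means of 2.33 TPM in controls and 2.92 TPM in Gata2cKO, with all Gata2cKO values above all controls, and did not pass (limma adjusted p = 0.176). The part of cartilage cells in the values of Col2a1, Col11a2 and Col27a1 was not tested.

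All 5 tested basement membrane genes had positive log2 fold changes (median 0.22), and 1 of them, Col4a1, rose. Col4a1 and Col4a2 encode the chains found in nearly every basement membrane. Col4a1 had 83.2, 82.6 and 85.2 TPM in controls and 115, 136 and 108 TPM in Gata2cKO. The controls were nearly level, and all Gata2cKO libraries were above them, with replicate 2 the highest. It rose 1.43-fold, with means of 83.7 ± 1.35 TPM in controls and 120.0 ± 14.5 TPM in Gata2cKO (SD over n = 3 libraries per group; log2 change 0.51 with SE 0.10; limma, adjusted p = 0.0276), and kept its call in 1 of the 6 removals of a library (adjusted p 0.0257 without control replicate 1, up to 0.0935 without Gata2cKO replicate 1).

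Col4a2 followed the same order of libraries in Gata2cKO, at 53.3, 64.0 and 49.6 TPM against 41.0, 40.0 and 43.9 TPM in controls. It did not pass (log2 change 0.40 with SE 0.11; limma, adjusted p = 0.0616), while the authors' deposited table gives an adjusted p of 0.00369. These 2 genes lie head to head on chromosome 8, Col4a1 from 11198423 to 11312826 on the minus strand and Col4a2 from 11312805 to 11449287 on the plus strand, and their annotated ends overlap by 22 bases (GRCm38). The region around their starts is shown from each gene's side because they lie so close. Each window runs from 250 bases before the RefSeq start to 50 after it, and capitals mark the 78 bases that the windows have in common (Col4a2, chr8:11312555-11312854, plus strand; Col4a1, chr8:11312777-11313076, minus strand; GRCm38.p6).
Col4a2: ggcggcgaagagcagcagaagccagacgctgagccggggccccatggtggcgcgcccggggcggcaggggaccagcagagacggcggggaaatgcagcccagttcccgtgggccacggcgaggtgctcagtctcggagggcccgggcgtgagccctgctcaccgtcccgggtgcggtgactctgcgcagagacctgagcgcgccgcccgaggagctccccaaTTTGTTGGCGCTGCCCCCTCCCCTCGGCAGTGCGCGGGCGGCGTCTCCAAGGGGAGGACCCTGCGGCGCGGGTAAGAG
Col4a1: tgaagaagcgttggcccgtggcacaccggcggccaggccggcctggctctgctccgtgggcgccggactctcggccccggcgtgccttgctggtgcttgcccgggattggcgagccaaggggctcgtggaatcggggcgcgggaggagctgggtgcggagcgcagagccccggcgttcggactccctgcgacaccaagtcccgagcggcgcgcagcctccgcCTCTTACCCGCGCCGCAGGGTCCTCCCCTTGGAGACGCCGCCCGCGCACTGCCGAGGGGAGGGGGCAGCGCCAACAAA

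These windows are rich in G and C, at 73.7% and 74.0%, and neither holds a GATA motif. The other type IV genes also form head-to-head pairs and were lower in level. Col4a5 was at 15.7, 16.9 and 15.05 TPM in controls and 18.3, 18.1 and 19.8 TPM in Gata2cKO, and Col4a6 at 4.25, 4.55 and 4.20 TPM and 4.71, 5.06 and 4.86 TPM (limma adjusted p = 0.133 and 0.306). In both genes all Gata2cKO values were above all control values. Col4a3 and Col4a4, chains of the mature glomerular membrane, lay between 0.332 and 0.616 TPM and between 1.34 and 2.54 TPM, with overlapping groups. Summed over the 6 genes, type IV stood at 147, 146 and 150.2 TPM in controls and 195, 227 and 184 TPM in Gata2cKO. The ratio of the mean sums was 1.37, and the groups do not overlap.

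Both multiplexin genes rose, and their groups did not overlap. Multiplexins are proteoglycans of basement membrane zones whose C-terminal fragments, endostatin in the case of type XVIII, can be released. Col15a1 (chromosome 4, 47208161 to 47313167) was at 10.4, 12.2 and 12.4 TPM in controls and at 25.02, 29.7 and 24.4 TPM in Gata2cKO. It had the highest log2 fold change of the tested collagen genes, 1.11 (SE 0.11), for a 2.26-fold rise with means of 11.7 ± 1.13 TPM in controls and 26.4 ± 2.91 TPM in Gata2cKO (SD over n = 3 libraries per group; limma, adjusted p = 0.00549). Its adjusted p stayed between 0.00277 and 0.0341 with 1 library left out.

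Col18a1 (chromosome 10, 77052178 to 77166548) was at 40.9, 46.0 and 50.2 TPM in controls and 61.5, 67.2 and 63.6 TPM in Gata2cKO. It rose 1.40-fold, with means of 45.7 ± 4.66 TPM in controls and 64.1 ± 2.88 TPM in Gata2cKO (SD over n = 3 libraries per group; log2 change 0.48 with SE 0.09; limma, adjusted p = 0.0284), and kept its call in 2 of the 6 removals (adjusted p up to 0.101 without Gata2cKO replicate 3). Both genes together summed to 51.2, 58.2 and 62.6 TPM in controls and 86.5, 96.9 and 87.9 TPM in Gata2cKO. For Col18a1 RefSeq gives 2 promoters, and a gene-level value cannot separate them. The promoter window of Col15a1 is shown because this gene had the highest log2 fold change (chr4:47207762-47208061, plus strand, GRCm38.p6). The window was placed by the RefSeq start and ends before the GENCODE start at 47208161. It holds none of the GATA, CCAAT or TATAAA motifs searched, so no letter is in capitals.
Col15a1: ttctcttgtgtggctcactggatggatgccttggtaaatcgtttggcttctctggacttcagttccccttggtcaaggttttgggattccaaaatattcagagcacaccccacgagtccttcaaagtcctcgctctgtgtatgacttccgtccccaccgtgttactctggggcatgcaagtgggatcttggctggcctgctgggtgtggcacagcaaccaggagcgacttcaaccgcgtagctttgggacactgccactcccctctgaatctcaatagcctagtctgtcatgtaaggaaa

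Some markers of cell types that lie on basement membranes also rose. Of 8 endothelial markers 3 rose and 0 fell, where 5.73% of all tested genes rose and 1.74% fell. The summed level of the 8 markers was 248 to 301 TPM in controls and 340.1 to 369.8 TPM in Gata2cKO. Esam, an endothelial adhesion gene, and Emcn, a sialoglycoprotein gene of capillaries, were among the 3 (0.53 and 0.67 on the log2 scale, limma adjusted p = 0.0112 and 0.0156). They kept their calls in 5 and 4 of the 6 removals of a library, and Pecam1, the last of the 3, in 1. Sox18, at means of 165 and 205 TPM, was the largest part of the sum and did not pass (limma adjusted p = 0.132). Kdr was at a mean of 27.2 TPM in both groups. Of 5 mesothelial markers 3 rose, with a summed level of 338 to 439.6 TPM in controls and 552 to 645 TPM in Gata2cKO. The 3 were Lrrn4, Upk3b and Krt19, which kept their calls in 6, 3 and 1 of the 6 removals. Msln did not pass (limma adjusted p = 0.109). Wt1, at means of 58.5 TPM in controls and 57.9 TPM in Gata2cKO, overlapped between the groups (limma adjusted p = 0.919). Of 9 duct epithelial markers 2 rose, with summed levels of 765 to 861 TPM and 987 to 1005 TPM. These were Cldn4 and Epcam, which kept their calls in 5 and 2 of the 6 removals. Podxl, a sialomucin gene of vessel lining and kidney epithelium, rose with means of 53.3 TPM in controls and 89.6 TPM in Gata2cKO (limma, adjusted p = 0.00849). The part of these cells in the rise of Col4a1, Col15a1 and Col18a1 was not tested.

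Among the FACIT genes, whose chains attach to the surface of fibrils, Col12a1 rose and the more abundant Col16a1 and Col9a2 did not pass. Of 6 tested FACIT genes 1 rose and 0 fell, with a median log2 fold change of 0.06. Col12a1, which links fibrils to other matrix, was at 23.8, 23.2 and 23.4 TPM in controls and 31.5, 36.3 and 29.3 TPM in Gata2cKO. The 3 controls were nearly alike and all Gata2cKO libraries lay above them. It rose 1.38-fold, with means of 23.5 ± 0.317 TPM in controls and 32.4 ± 3.56 TPM in Gata2cKO (SD over n = 3 libraries per group; log2 change 0.44 with SE 0.09; limma, adjusted p = 0.0350), and kept its call in 1 of the 6 removals of a library (adjusted p up to 0.119 without Gata2cKO replicate 1). Rescaling without mitochondrially encoded genes, in which control replicate 1 stood apart, also ended the call (adjusted p = 0.0605).

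Col16a1, a FACIT gene known from smooth muscle and skin, stood at 121, 144 and 161 TPM in controls and 137, 159 and 139.7 TPM in Gata2cKO (limma adjusted p = 0.863). Col9a2, a chain of type IX collagen, stood at 94.8, 139 and 165 TPM in controls and 108, 133 and 103 TPM in Gata2cKO (limma adjusted p = 0.587). The controls of Col9a2 spread more widely than the groups differed. Its partner chains were far lower, with Col9a3 at 1.68 to 2.81 TPM and Col9a1 at 0.202 to 0.521 TPM over the 6 libraries, so that Col9a2 exceeded Col9a3 by between 36.7 and 82.9 times in each library. Col14a1, at 10.8 to 15.7 TPM, Col20a1, at 0.862 to 1.14 TPM, and Col22a1, at 0.0429 to 0.0862 TPM, had overlapping groups.

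The class of other collagens was led by type VI, whose beaded filaments surround cells, and whose abundant chains did not pass. Of 12 tested genes of this class 3 rose and 1 fell. Summed type VI stood at 1798, 2034 and 2214 TPM in controls and 1925, 2326 and 1954 TPM in Gata2cKO, which overlap. Type VI filaments need the chains of Col6a1, Col6a2 and Col6a3 together. Col6a1 was at 1003, 1133 and 1226 TPM in controls and 1127, 1321 and 1139 TPM in Gata2cKO, and Col6a2 at 701, 804 and 889 TPM and 689, 873 and 709.7 TPM (limma adjusted p = 0.617 and 0.736). Col6a3 was at 87.5, 88.3 and 90.9 TPM in controls and 98.1, 121 and 93.6 TPM in Gata2cKO (limma adjusted p = 0.229). Groups overlapped for Col6a1 and Col6a2 and not for Col6a3.

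The low chains of type VI, which can take the place of Col6a3, form a cluster on chromosome 9. Of these Col6a5 (105856078 to 105960643) rose, from 1.09, 1.57 and 1.23 TPM in controls to 2.28, 2.61 and 2.31 TPM in Gata2cKO. That is 1.85-fold between means of 1.30 ± 0.247 and 2.40 ± 0.181 TPM (SD over n = 3 libraries per group; log2 change 0.57 with SE 0.11; limma, adjusted p = 0.0253), close to the lower limit for testing, with the call kept in 2 of the 6 removals (adjusted p up to 0.0901 without Gata2cKO replicate 1). Its neighbour Col6a6 was at 5.75, 6.80 and 6.53 TPM in controls and 7.84, 8.14 and 8.20 TPM in Gata2cKO, without overlap, and did not pass (limma adjusted p = 0.0790). Col6a4, at 0.393 to 0.683 TPM, was not tested.

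Type VIII collagen builds the hexagonal lattice under the corneal endothelium and is also made in vessel walls. Col8a2 was at 102, 124 and 122 TPM in controls and 149.7, 154 and 146 TPM in Gata2cKO, with no overlap. It just missed the threshold (log2 change 0.37 with SE 0.09; limma, adjusted p = 0.0566), and passed without control replicate 1 (adjusted p = 0.0394) and with upper-quartile scaling. Its partner Col8a1 was more than 100 times lower, at 0.601, 0.754 and 0.797 TPM in controls and 1.31, 1.46 and 1.12 TPM in Gata2cKO, and rose (log2 change 0.42 with SE 0.10; limma, adjusted p = 0.0466). No removal of a single library left that call in place (adjusted p up to 0.158 without Gata2cKO replicate 1). Neither did rescaling without mitochondrially encoded genes (adjusted p = 0.0587) or the replicate number as a block (adjusted p = 0.0738).

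The membrane-spanning collagens went both ways. Col13a1, a transmembrane collagen of cell adhesion sites, was at 4.04, 5.99 and 6.04 TPM in controls and 2.75, 3.33 and 3.24 TPM in Gata2cKO, without overlap. It fell 1.72-fold, with means of 5.36 ± 1.14 TPM in controls and 3.11 ± 0.310 TPM in Gata2cKO (SD over n = 3 libraries per group; log2 change -0.62 with SE 0.15; limma, adjusted p = 0.0462). The adjusted p was 0.00624 without control replicate 1 and lay above 0.05 in the other 5 removals, up to 0.158 without Gata2cKO replicate 1. Col23a1, of the same family, was at 5.10, 5.18 and 5.98 TPM in controls and 7.56, 8.48 and 7.57 TPM in Gata2cKO, and rose 1.45-fold (log2 change 0.47 with SE 0.09; limma, adjusted p = 0.0306). It kept that call in 1 of the 6 removals (adjusted p up to 0.103 without Gata2cKO replicate 1). Col25a1, the brain-enriched member, was under 1 TPM in every library, at 0.949, 0.759 and 0.727 TPM in controls and 0.433, 0.484 and 0.464 TPM in Gata2cKO. It was not tested with the filter on low values and was called lower when that filter was dropped. Col17a1, the hemidesmosome collagen of epithelium, overlapped between the groups at 0.905 to 1.67 TPM.

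The promoter window of Col13a1 is shown as that of the only collagen gene called lower (chromosome 10, chr10:61979059-61979358, minus strand, GRCm38.p6). Capitals mark TATAAA.
Col13a1: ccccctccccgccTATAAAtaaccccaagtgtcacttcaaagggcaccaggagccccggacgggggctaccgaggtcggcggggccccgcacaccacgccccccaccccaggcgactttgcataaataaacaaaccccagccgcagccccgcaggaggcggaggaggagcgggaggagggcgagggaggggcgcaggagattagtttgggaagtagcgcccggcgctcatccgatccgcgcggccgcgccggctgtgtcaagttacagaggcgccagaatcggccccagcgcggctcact

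Of the last 2 genes, Col7a1, the anchoring fibril collagen that ties epithelial basement membrane to the tissue below, was at 19.5, 25.5 and 33.8 TPM in controls and 15.3, 20.4 and 16.4 TPM in Gata2cKO. Only Gata2cKO replicate 2 reached into the range of the controls, and the test was not passed (log2 change -0.55 with SE 0.19; limma, adjusted p = 0.121; adjusted p = 0.0261 without control replicate 1). Col26a1 was at 16.4, 19.3 and 20.5 TPM in controls and 23.8, 25.5 and 22.8 TPM in Gata2cKO, without overlap (limma adjusted p = 0.0780). Over the 41 listed collagen genes, all Gata2cKO values lay above all control values for 19 and below them for 5, where 22.7% and 10.5% of all listed genes did so.

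**Figure D3:**
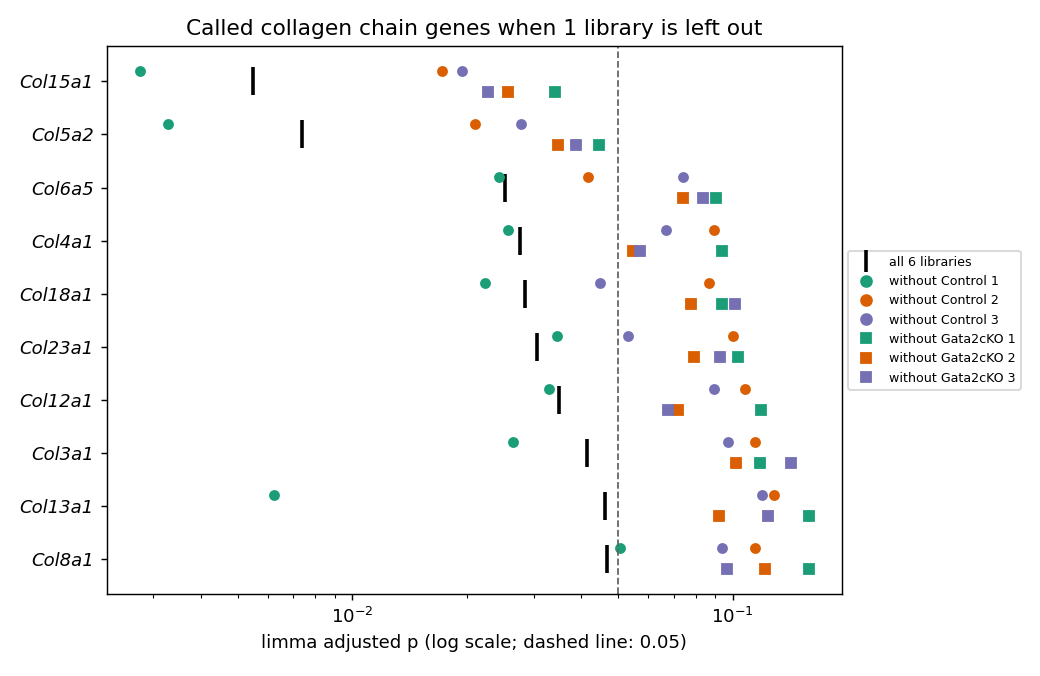
Limma adjusted p of the 10 called collagen chain genes with all 6 libraries (black bars) and with 1 library left out (circles for controls, squares for Gata2cKO), on a log axis with the threshold as a dashed line. Only Col15a1 and Col5a2 have all points left of the line, at or below 0.0341 and 0.0444.

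Ratios of chains within a library do not depend on how the library was scaled, and for 7 of 14 pairs they did not overlap between the groups. Of all pairs of tested genes above 0 TPM in every library 34.3% had such a ratio. The ratio of Col11a1 to Col11a2 was 1.72, 1.26 and 1.45 in controls and 2.78, 3.59 and 2.62 in Gata2cKO. For Col5a1 to Col5a2 it was 1.40, 1.30 and 1.48 in controls and 0.881, 1.15 and 0.904 in Gata2cKO, so that Col5a2 went from the lower to the higher level of the pair in 2 of 3 Gata2cKO libraries. For Col6a1 to Col6a2 it was 1.43, 1.41 and 1.38 in controls and 1.63, 1.51 and 1.61 in Gata2cKO. In these 3 pairs the groups do not overlap.

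Among other pairs some overlapped. Col4a1 to Col4a2 stood at 2.03, 2.06 and 1.94 in controls and 2.16, 2.13 and 2.18 in Gata2cKO, a narrow gap without overlap. Col1a1 to Col1a2 stood at 2.94, 3.21 and 3.32 and at 2.93, 3.32 and 2.91, which overlap. Col3a1 to Col1a1 also overlapped, at 0.463, 0.388 and 0.358 in controls and 0.518, 0.398 and 0.533 in Gata2cKO, with replicate 2 the lowest of its group. The ratio of Col18a1 to Col15a1 was 3.92 ± 0.136 in controls and 2.44 ± 0.174 in Gata2cKO (SD, n = 3 each), without overlap. An exact two-sided permutation test of 3 libraries against 3 cannot go below p = 0.10, no other test of the 14 ratios was run, and they stand as a description.

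**Figure D4:**
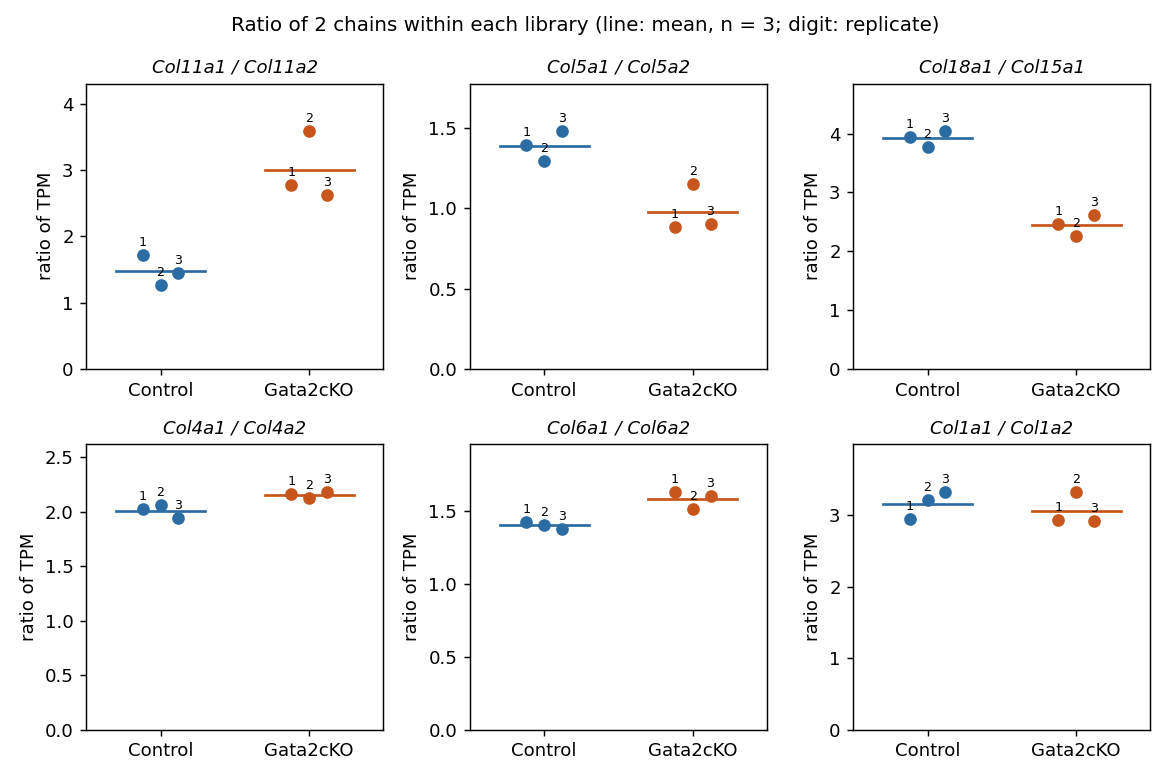
Ratio of the TPM of 2 collagen chains in each library, with controls in blue and Gata2cKO in orange, the replicate number beside each point and the mean as a line (n = 3 each). The groups separate for Col11a1 to Col11a2 (means 1.48 and 3.00), Col5a1 to Col5a2 (1.39 and 0.980) and Col18a1 to Col15a1 (3.92 and 2.44), and overlap for Col1a1 to Col1a2.

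Of the tested genes that make, process, bind or degrade collagen chains, 6 rose and 0 fell among 41 tested of 54 written, where 5.73% of all tested genes rose and 1.74% fell. The enzymes of prolyl and lysyl modification had 2 of 12 that rose: Colgalt1, which adds galactose to hydroxylysine, with means of 63.1 ± 6.28 TPM in controls and 99.7 ± 6.20 TPM in Gata2cKO, and P3h4, a partner of the lysyl hydroxylase complex, with means of 133 ± 16.6 TPM in controls and 196 ± 5.49 TPM in Gata2cKO (SD over n = 3 libraries per group; limma, adjusted p = 0.0139 and 0.0243). Of 9 tested genes of folding and export Fkbp14, a prolyl isomerase gene, rose with means of 34.2 ± 3.14 TPM in controls and 44.7 ± 1.07 TPM in Gata2cKO (SD over n = 3 libraries per group; limma, adjusted p = 0.0433). Serpinh1, the dedicated collagen chaperone gene, was at means of 2121 and 2140.5 TPM and did not pass (limma adjusted p = 0.930).

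Of 4 tested cross-linking genes Lox, the oxidase that starts the cross-links, rose (log2 fold change 0.81, limma adjusted p = 0.0136). Among 7 tested receptors Itgb1, the shared chain of the collagen-binding integrins, rose with means of 104 ± 7.37 TPM in controls and 155 ± 9.17 TPM in Gata2cKO and Adgrg1, a receptor for type III collagen, with means of 12.6 ± 1.31 TPM in controls and 20.4 ± 3.16 TPM in Gata2cKO (SD over n = 3 libraries per group; limma, adjusted p = 0.0149 and 0.0284). Each of these 6 genes lost its call in at least 2 of the 6 removals of a library. None of 4 propeptide processing genes and none of 5 degradation genes passed. The smallest p in these 2 lists belonged to Bmp1, the procollagen C-proteinase gene (log2 fold change -0.26, limma adjusted p = 0.232), and to Mmp9, a gelatinase gene (0.67, limma adjusted p = 0.0561). Mmp9, like Col8a1, entered the test through its Gata2cKO values alone, with all controls under 1 TPM.

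Some markers of mesenchyme and smooth muscle, cells that make fibrillar collagen, fell. Of 7 mesenchymal markers 0 rose and 3 fell (Tcf21, Osr2 and Twist2), where 5.73% of all tested genes rose and 1.74% fell. Tcf21, Osr2 and Twist2 kept their calls in 6, 4 and 1 of the 6 removals of a library. The summed level of the 7 markers was 1090.3 to 1316 TPM in controls and 738 to 767 TPM in Gata2cKO, with Tcf21 the most abundant. The list was not uniform: Pdgfra, at means of 133 TPM in controls and 143 TPM in Gata2cKO, overlapped between the groups (limma adjusted p = 0.587). Prrx1, a mesenchymal homeobox gene, was at means of 11.6 TPM in controls and 14.7 TPM in Gata2cKO without overlap and did not pass (limma adjusted p = 0.0548). Of 5 smooth muscle markers 0 rose and 2 fell (Acta2 and Myh11), with summed levels of 651 to 725 TPM and 537 to 590.0 TPM. Acta2, the most abundant, was at means of 315 TPM in controls and 196 TPM in Gata2cKO. It kept its call in 2 of the 6 removals of a library, and Myh11 in 6. Tagln, Cnn1 and Des overlapped between the groups and did not pass (log2 fold changes -0.13, -0.18 and 0.07). The part of mesenchymal and smooth muscle cells in the levels of the fibrillar genes was not tested. Markers of bone (0 of 2 tested, Ibsp and Sp7, with summed levels of 5.81 to 10.04 TPM in controls and 10.2 to 13.5 TPM in Gata2cKO), of Schwann and neural crest cells (0 of 3) and of testis cords and Leydig cells (0 of 2) did not pass.

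Promoter windows of 300 bases were matched by symbol in RefSeq (GRCm38.p6) for 32 of the 41 collagen genes, in 35 windows. For some genes, Col15a1 among them, the RefSeq start differs from the GENCODE start. Col1a1, Col2a1, Col5a2, Col4a3, Col9a3, Col12a1, Col14a1, Col22a1 and Col26a1 had no window. A GATA motif (the letters GATA with A or T before and A or G after them, on either strand) stood in 5 windows (14.3%), those of Col3a1, Col27a1, Col11a2, Col17a1 and Col4a6, and in 29.8% of all 32851 windows. CCAAT on either strand stood in 13 (37.1%) and in 37.4% of all, and TATAAA on either strand in 4 (11.4%) and in 13.6% of all. A window was counted for each motif whether or not another motif shared its bases. The median share of G and C was 60% in the collagen windows and 52.7% in all windows. A match describes these letters and shows no binding.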

How the data were processed

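RNA-seq libraries of 6 mesonephros samples (3 control and 3 Gata2cKO) were analysed from a single gene table. Per the labels' protocols, a PicoPure kit gave the RNA, of which the polyadenylated part was reverse-transcribed from random hexamers. The values deposited by the authors for each library are TPM, a unit taken from the values, which sum to between 997351 and 998844 per library. The authors' deposited table also gives a log2 fold change, a p-value and an adjusted p for each gene. Per the submitters' processing notes STAR 2.7.11a, DESeq2, DESeq and the build GRCm38 were used, in roles left unstated. For the quantifier and the strand setting the sources used here give no name, so a gene and a partner on the other strand (17 of the 41 collagen genes have one) cannot be told apart.

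Columns were matched to samples by library name. Limma 3.58.1 (R 4.3.3, variance trend, group as the only term) was fitted to log2(TPM + 1) of 12300 genes with TPM of at least 1 in at least 3 libraries, with Benjamini-Hochberg adjustment over all of them and a threshold of 0.05. Fold values are ratios of mean TPM, and log2 fold changes on this scale understate low genes. The fit was also run on simulated data with known changes, and the outcome is not given here. Depth is unknown, so no counting interval is given. Gene positions come from the GENCODE M21 annotation (GRCm38), in which all 41 genes were found. All libraries entered the fit, and alternatives varied the pseudocount, filter, scaling, variance model, block and libraries.

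The collagen genes, their classes and the pathway and marker lists were chosen with earlier results of these data known. Part of the marker results is not reported here. Values in every sample are given for genes past the threshold, the 8 most abundant and the partner chains of either. Others are named at an end of a range or after their values were seen. Of pathway lists the genes past the threshold (up to 4 in each direction), or the one with the smallest p, are named.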

Additional observations from a re-analysis of the deposited data

How the results depend on the processing

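The count of 9 collagen genes called higher was 2 to 9 when 1 library was left out, and the count of 1 called lower was 0 to 3. The authors' deposited adjusted p gave 14 and 5. The lower count was 0 with TPM of 5 or more in at least 3 libraries, 3 with median-of-ratios scaling, and 2 each with upper-quartile scaling, without mitochondrially encoded genes in the total and with a constant prior variance. Other settings moved neither count by over 1.5 times, but without the filter Col25a1 was called lower in place of Col13a1, and Col3a1 was lost. Direction reversed for 5 of the 35 tested genes, none of which passed: with 1 library left out the log2 fold change ranged from -0.035 (without Gata2cKO replicate 2) to 0.236 for Col1a1, which was also below 0 without control replicate 1, from -0.0713 (without control replicate 1) to 0.135 for Col16a1, which was also below 0 without Gata2cKO replicate 2, and from -0.183 to 0.0043 (without control replicate 3) for Col6a2. Col16a1 was at -0.0201 with median-of-ratios scaling, -0.0022 with upper-quartile scaling and -0.0206 without mitochondrially encoded genes. Col14a1 was at -0.0371 without control replicate 1, and Col17a1 above 0 (0.0028 to 0.0534) in 4 removals. The cause was not tested. The log2 ratio of each class's summed TPM moved by less than the spread between replicates in all 55 values from alternative settings over the 5 classes. With the replicate number as a block 6 collagen genes were higher and 1 lower. Numbers 1, 2 and 3 correlated across groups at 0.25, -0.07 and 0.04 in their deviations, and control replicates 2 and 3 correlated best with other numbers. With 3 libraries per group these values cannot show whether samples of the same number shared a litter, which the labels do not state. TPM keeps no depth, so the precision of genes under 1 TPM is unknown.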
